A study of Mus musculus with 81 samples.

Results

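The 10 genes Tal1, Lyl1, Lmo1, Lmo2, Hhex, Mef2c, Erg, Spi1, Tlx1 and Tlx3 encode transcription factors and cofactors known as oncogenes of T-cell acute leukaemia. They were taken by symbol from a table of 51826 genes, and all 10 were found in it. RNA sequencing covered 81 libraries of thymic tissue from 40 mice of a C57BL/6 x 129S4Sv/Jae background. All mice, controls included, carried Plk4(Col1a1), rtTA(Rosa) and centrin-GFP(Rosa), where rtTA is a doxycycline-dependent activator and Plk4 the kinase that starts centriole duplication. Normal thymus came from 8 p53+/+ mice (8 libraries) and from 1 p53+/- mouse. Thymic lymphomas came from 10 untreated p53-/- mice (23 libraries), from 9 treated p53-/- mice (18 libraries) and from 12 treated p53+/- mice (31 libraries). By label, 9 of the 10 untreated p53-/-, 4 of the 9 treated p53-/- and 3 of the 12 treated p53+/- mice were male. Of the 8 p53+/+ normal mice, 4 were. Treatment was doxycycline for 2 weeks, begun when the mice were 30 days old. The lymphomas therefore numbered 31, of which 13 were biopsied 4 or 5 times and 18 once. The study asked how aneuploidy affects tumour development. For the 10 factors the comparisons were lymphoma with normal thymus, lymphoma groups with each other, single tumours with the remaining lymphomas, and biopsies within a tumour.

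TAL1 and LYL1 are basic helix-loop-helix proteins that bind E-box sequences together with E proteins such as Tcf3 and Tcf12. LMO1 and LMO2 are LIM-only proteins that do not bind DNA themselves and bridge TAL1 or LYL1 to LDB1 and GATA factors. HHEX, TLX1 and TLX3 are homeobox proteins, MEF2C is a MADS-box factor, and ERG and SPI1 (PU.1) are ETS factors. Most of these genes are used in blood stem and progenitor cells and are turned down as thymocytes commit to the T lineage. Several remain in use in other cells of the thymus: Spi1 in myeloid and B cells, Mef2c, Hhex and Lmo2 in B cells, Erg in endothelium, and Tal1 in red cell precursors. In human T-cell leukaemia they are switched on in single tumours by rearrangements or by changes in regulatory DNA, so an elevated level in 1 tumour against a low level in the rest is the pattern for which they are usually examined.

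Levels are given per mouse as CPM, which are counts put on the same total for every library after TMM scaling, with all biopsies of a mouse summed. Library totals ran from 1.03 M to 26.87 M counts and those of the summed lymphomas from 9.48 M to 98.59 M. A pair of mice stood apart. In the normal thymus of mouse 387, the summed CPM of 4 fat markers was 8278 against 659.7 to 3622 in the other 7 p53+/+ thymuses, that of 7 B lineage markers 1332 against 98.5 to 141.8, that of 8 endothelial markers 730.2 against 156.7 to 288.1, and that of 6 T lineage markers 696.3 against 3253 to 4519. Lymphoma mouse 881, untreated p53-/-, had a T lineage sum of 152.3 against 1736 to 4798 in the other 30 lymphomas and a B lineage sum of 3503 against 6.28 to 412.6. In 3 of the 40 mice the expression of sex-linked genes went against the labelled sex, which is a covariate of the fits: mouse 328 (labelled male) and mice 869 and 870 (labelled female). Results that rest on mouse 387 or mouse 881 are given with and without it.

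The 250 bases before the first RefSeq start site are shown for the genes later found far above the other lymphomas in single tumours (Tal1, Lyl1, Hhex and Mef2c), in build GRCm38.p6 and on the plus strand, 5′ to 3′. They are shown because Lyl1, Hhex and Mef2c were high together in 1 tumour, so that a reader can compare what lies upstream of each. Capitals mark matches, on either strand, to an E-box (CAGNTG), to a GATA motif (GATAA) or to an ETS motif (GGAAGT). The Tal1 window lies at chr4:115056176-115056425, the Lyl1 window at chr8:84701207-84701456 and the Mef2c window at chr13:83503784-83504033. The Hhex window, chr19:37434591-37434809, is 219 bases long because its last 31 bases fall inside the gene annotated by GENCODE.
Tal1: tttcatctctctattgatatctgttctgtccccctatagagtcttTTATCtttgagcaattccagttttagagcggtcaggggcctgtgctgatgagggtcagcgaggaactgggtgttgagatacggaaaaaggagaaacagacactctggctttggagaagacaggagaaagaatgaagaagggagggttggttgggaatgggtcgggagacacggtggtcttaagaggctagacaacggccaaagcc
Lyl1: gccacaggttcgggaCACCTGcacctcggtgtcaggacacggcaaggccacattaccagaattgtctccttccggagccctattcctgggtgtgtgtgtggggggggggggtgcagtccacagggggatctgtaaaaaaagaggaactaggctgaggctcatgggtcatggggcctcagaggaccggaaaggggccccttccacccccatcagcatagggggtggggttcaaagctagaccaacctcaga
Hhex: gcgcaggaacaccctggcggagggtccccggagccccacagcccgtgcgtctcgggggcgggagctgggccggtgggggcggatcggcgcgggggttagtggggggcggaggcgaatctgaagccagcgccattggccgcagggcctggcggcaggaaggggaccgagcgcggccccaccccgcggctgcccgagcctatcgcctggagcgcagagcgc
Mef2c: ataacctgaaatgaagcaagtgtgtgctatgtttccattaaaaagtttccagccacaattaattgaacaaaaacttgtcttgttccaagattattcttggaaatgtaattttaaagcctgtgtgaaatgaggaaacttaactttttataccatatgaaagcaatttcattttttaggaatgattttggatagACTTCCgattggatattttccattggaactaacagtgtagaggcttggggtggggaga
The Tal1 window held 1 GATA motif, whose first base lay at -205 from the start site. In the Lyl1 window there was 1 E-box at -235, and the Mef2c window had 1 ETS motif at -58. None of the 3 motifs was found in the Hhex window. Of 32851 windows of 250 bases in the RefSeq table, 44.8% held the E-box, 22.6% the GATA motif and 19.7% the ETS motif, so each match is one that many promoters have. The table held 14 windows for 8 of the 10 genes.

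Per kilobase of exon, the order of median levels over the 31 lymphomas was Spi1 (4.25 CPM per kb), Lmo2 (3.34), Lyl1 (1.43), Erg (0.534), Hhex (0.338), Mef2c (0.182), Lmo1 (0.170) and Tal1 (0.122). Tlx1 and Tlx3 had a median of 0. Neighbours in this order overlapped widely between tumours. The spread between tumours also differed between factors: the SD of log2 CPM over the 31 lymphomas was 1.57 for Lyl1, 1.49 for Mef2c and 1.32 for Hhex, against 0.975 for Tal1, 0.843 for Erg, 0.755 for Spi1 and 0.677 for Lmo2. The median SD over all genes tested was 0.650, and Lyl1 lay at the 88.6th percentile of them. Without mouse 881 the SDs of Lyl1, Mef2c and Hhex were 1.3, 0.972 and 1.07.

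**Figure D1:**
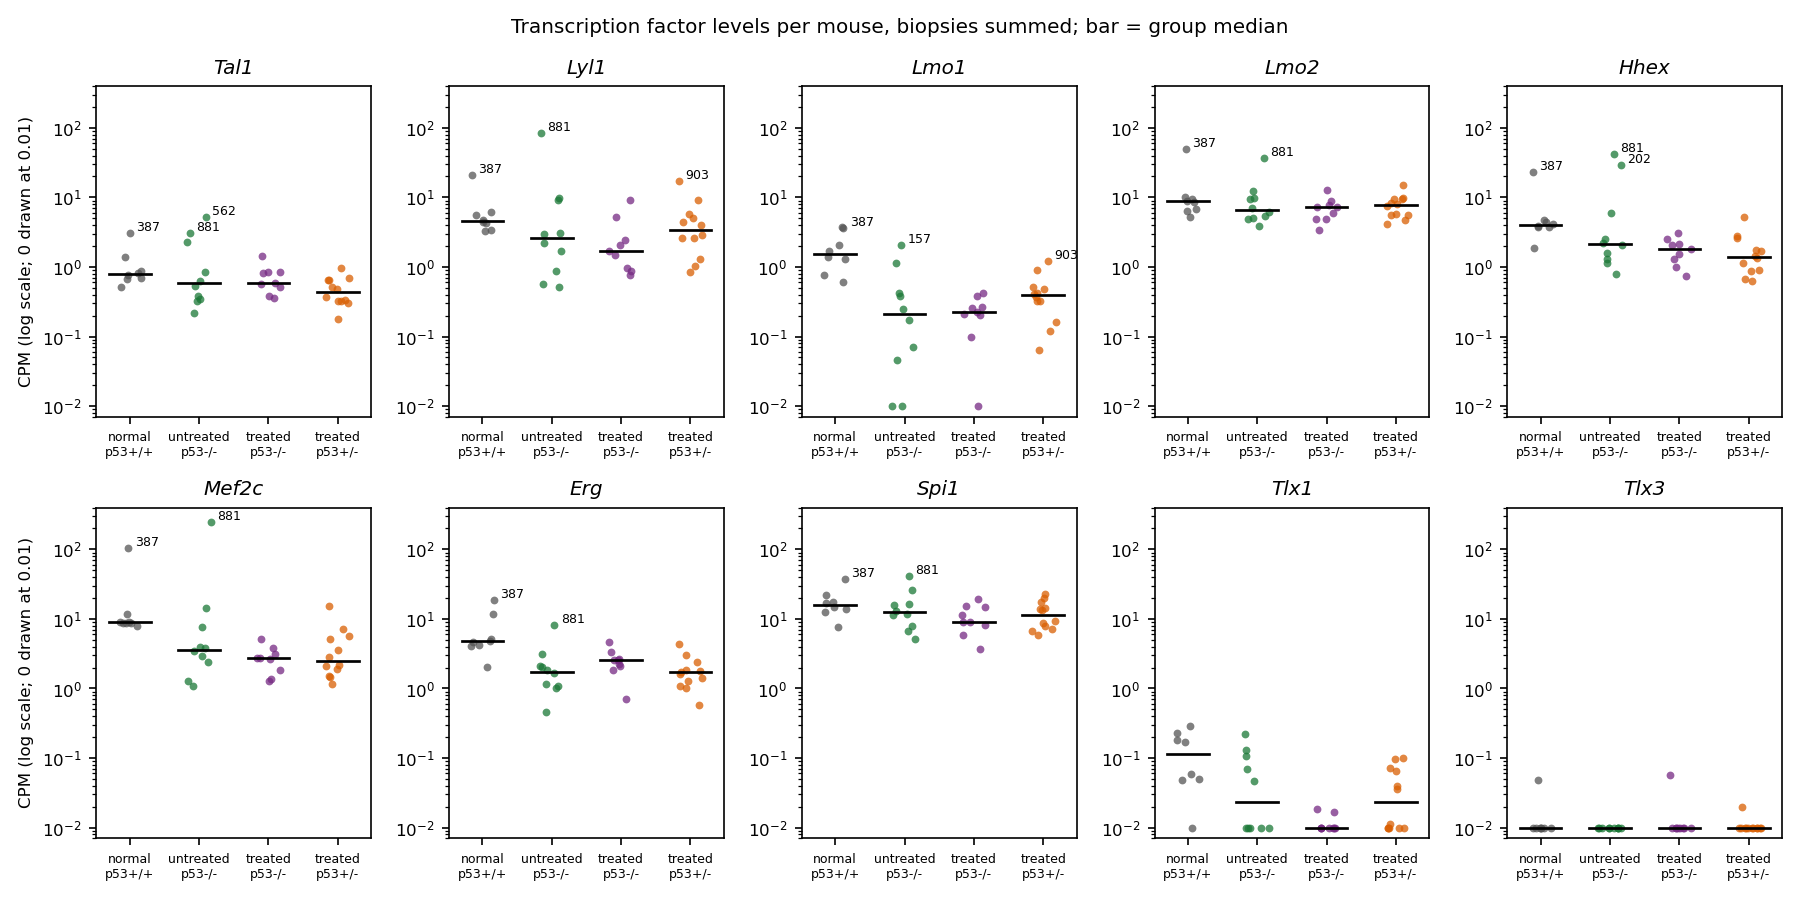
CPM per mouse on a log axis for each of the 10 genes, with 1 point per mouse, normal p53+/+ thymus in grey, the 3 lymphoma groups in colour and a bar at each group median. Values of 0 are drawn at 0.01. Normal mouse 387 is the highest normal thymus for Tal1, Lyl1, Lmo2, Hhex, Mef2c, Erg and Spi1, and mouse 881 is the highest lymphoma for the last 6 of these, at 250.6 CPM for Mef2c.

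Against normal thymus, the called changes were falls. In edgeR's quasi-likelihood test, with Benjamini-Hochberg adjustment over 17843 genes and calls at an adjusted p under 0.05, 2 of the 8 factors tested were lower in untreated p53-/- lymphomas (Lmo1 and Erg), 4 in treated p53-/- lymphomas (Lmo1, Erg, Hhex and Mef2c) and 5 in treated p53+/- lymphomas (the same 4 and Tal1). No factor was called higher in any of the 3 comparisons. Of all genes tested, 40.7%, 52.1% and 50.9% were called in the 3 comparisons, and 17.5%, 26.7% and 25.3% were called lower. The shares of factors called are to be read against that background. Without normal mouse 387 the counts were 2, 1 and 2 factors, all lower. Of all genes, 40.3%, 48.6% and 46% were then called, and 14.4%, 20.8% and 18.4% were called lower. Without mice 387 and 881 the counts were 2, 3 and 3 factors, again all lower. Of all genes, 41.2%, 49.4% and 46.9% were then called, and 15.1%, 21.2% and 18.9% were called lower. Tlx1 and Tlx3 did not pass edgeR's filter on low counts. In bulk tissue, fewer cells of a type and less RNA per cell cannot be told apart.

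Lmo1 (chr7:109138572-109175207, minus strand), a LIM-only gene found at T-leukaemia translocations, had 0.599, 1.55 and 3.78 CPM as lowest, median and highest values in the 8 p53+/+ thymuses. In untreated p53-/- lymphomas these were 0, 0.213 and 2.04 CPM, in treated p53-/- lymphomas 0, 0.225 and 0.429 CPM, and in treated p53+/- lymphomas 0.0636, 0.394 and 1.22 CPM. Of the 31 lymphomas, 27 lay below every normal thymus, and in treated p53-/- mice the groups did not overlap. The edgeR log2 fold changes were -2.29 ± 0.67 (SE, adjusted p = 0.00611), -3.07 ± 0.68 (adjusted p = 0.000312) and -2.04 ± 0.60 (adjusted p = 0.00508). Without mouse 387 they were -2.01 (adjusted p = 0.0147), -2.65 (adjusted p = 0.00182) and -1.56 (adjusted p = 0.0464). With single-biopsy tumours only, Lmo1 was not called in untreated p53-/- lymphomas and was called in both treated groups. Lmo1 counts were small, at 0 in 3 lymphomas and 12 to 61 in the normal thymuses. The p53+/- normal thymus of mouse 819, in no group test, had 0.190 CPM, below all 8 p53+/+ thymuses. In the same 3 comparisons, 4, 5 and 5 of 6 thymic epithelium markers were called lower, with medians of -3.90, -4.15 and -4.38 on the log2 scale. All 4 fat markers (medians -7.37, -7.41 and -7.40) and 3 of 4 dendritic markers were called lower in each. These counts were the same without mouse 387, and 17.5%, 26.7% and 25.3% of all genes were called lower with it. The part of these tissues in the Lmo1 difference was not tested.

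Erg (chr16:95359169-95586593, minus strand), an ETS factor of stem cells and endothelium, ranged from 2.04 over a median of 4.74 to 18.9 CPM in normal thymus. Lymphoma medians were 1.74, 2.57 and 1.70 CPM in the untreated p53-/-, treated p53-/- and treated p53+/- groups, with highest values of 8.08, 4.69 and 4.38 CPM. Of the 31 lymphomas, 17 lay below every normal thymus and 14 overlapped the normal range. The log2 fold changes by edgeR were -1.56 ± 0.46 (adjusted p = 0.00622), -1.53 ± 0.46 (adjusted p = 0.00523) and -2.01 ± 0.42 (adjusted p = 0.000157). Without mouse 387 the call in treated p53-/- mice was lost (-0.99, adjusted p = 0.0629), while those in the other groups stayed under the threshold (adjusted p = 0.0288 and 0.00489). Without mice 387 and 881 Erg was again called lower in treated p53-/- mice (-1.02, edgeR adjusted p = 0.0299). Of 8 endothelial markers, 5, 4 and 6 were called lower in the same 3 comparisons, and 4, 1 and 4 without mouse 387. Kdr, the vascular endothelial growth factor receptor, had log2 fold changes of -1.95, -1.60 and -2.34. Egfl7, a protein secreted by endothelium, was called higher in treated p53-/- mice (0.82, edgeR adjusted p = 0.04). Their part in the Erg difference was not tested.

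Mef2c (chr13:83504034-83667080, plus strand), which B cells and immature thymocytes use, had 7.79 CPM as its lowest, 8.92 as its median and 104.4 as its highest normal value. Untreated p53-/- lymphomas had 1.09, 3.6 and 250.6 CPM, treated p53-/- lymphomas 1.26, 2.71 and 5.10 CPM, and treated p53+/- lymphomas 1.14, 2.52 and 15.2 CPM. In all, 28 of 31 lymphomas were below every normal thymus, and the 3 that were not were mice 562, 881 and 266. All 9 treated p53-/- lymphomas lay below all 8 normal thymuses for Mef2c and for Lmo1. Across all genes tested 8.97% had such a gap in treated p53-/- mice, against 4.14% in untreated p53-/- and 5.51% in treated p53+/- mice, where no factor had one. By edgeR the log2 fold change was -2.93 ± 0.88 (adjusted p = 0.0056) in treated p53-/- mice and -2.42 ± 0.77 (adjusted p = 0.00907) in treated p53+/- mice. Both calls rested on mouse 387: without it they were -1.66 (adjusted p = 0.0888) and -1.06 (adjusted p = 0.266). In untreated p53-/- mice the value was 0.79 with mouse 881 and -1.84 (edgeR, adjusted p = 0.0115) without it. With both mice left out, Mef2c was called lower in both treated groups (-1.73, adjusted p = 0.00345, and -1.18, adjusted p = 0.0332) and not in the untreated group (-0.89).

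Hhex (chr19:37434810-37440731, plus strand), a homeobox gene of progenitors and B cells, had 1.87, 4.04 and 23.2 CPM as lowest, median and highest values in normal thymus. Its medians in the 3 lymphoma groups, in the same order, were 2.12, 1.84 and 1.40 CPM, and the highest values 41.6, 3.12 and 5.18 CPM. Of the 31 lymphomas, 18 lay below every normal thymus and 2 above all of them. EdgeR gave -1.83 ± 0.66 (adjusted p = 0.0192) in treated p53-/- and -1.89 ± 0.60 (adjusted p = 0.0084) in treated p53+/- mice. Neither call held without mouse 387 (-0.98, adjusted p = 0.192, and -1.04, adjusted p = 0.143). DESeq2 gave no p for Hhex or Mef2c in these comparisons. B lineage markers moved with both genes: 6 of 7 were called lower in treated p53-/- and 7 of 7 in treated p53+/- mice, with summed levels of 98.5 to 1332 CPM in normal thymus and a median of 22.1 CPM over the lymphomas, and no B lineage marker was called in untreated p53-/- mice. Without mouse 387, 3 of 7 were called lower in treated p53-/- and 0 in treated p53+/- mice, and 1 was called higher in untreated p53-/- mice. Without mouse 881, 4 of 7 were called lower in untreated p53-/- mice, beside 18.7% of all genes. Without both mice, 1 was called lower in untreated p53-/-, 5 in treated p53-/- and 1 in treated p53+/- mice, beside 15.1%, 21.2% and 18.9% of all genes. The part of the B lineage markers in the Hhex and Mef2c differences was not tested.

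Tal1 (chr4:115056426-115071755, plus strand), a gene frequently activated in childhood T-cell leukaemia, was low throughout. Normal thymus had 0.509, 0.802 and 3.07 CPM as lowest, median and highest values. The medians were 0.584 CPM in both p53-/- groups and 0.432 CPM in treated p53+/- lymphomas, with highest values of 5.19, 1.45 and 0.966 CPM. Tal1 was called lower only in treated p53+/- mice (edgeR log2 fold change -1.25 ± 0.48, adjusted p = 0.0304), and the call was lost without mouse 387 (-0.58, adjusted p = 0.338). All groups overlapped.

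With all mice in the fit and labelled sex as a covariate, edgeR called none of Lyl1, Lmo2 and Spi1 in any comparison. In treated p53-/- mice DESeq2 called Lyl1 (-1.46, adjusted p = 0.0161) and Lmo2 (-0.97, adjusted p = 0.0461) lower, and edgeR without the sex covariate called Lmo2 lower. Lyl1 (chr8:84701457-84704715, plus strand), the paralog of Tal1, had 3.33, 4.6 and 21.1 CPM in normal thymus. In lymphomas its medians were 2.59, 1.67 and 3.4 CPM and its highest values 84.3, 9.15 and 17.3 CPM, and 20 of 31 lymphomas were below every normal thymus. With all mice, the lowest edgeR adjusted p for Lyl1 was 0.111, in treated p53-/- mice (-1.42 ± 0.75). There edgeR called Lyl1 lower without mice 328, 869 and 870 (-2.03, adjusted p = 0.0477) and with single-biopsy tumours only. In untreated p53-/- mice Lyl1 had 1.27 ± 0.80 with mouse 881 and -0.56 without it. Lmo2 (chr2:103957986-103981878, plus strand), the LIM-only partner used in blood stem cells, had 5.27, 8.77 and 50.1 CPM in normal thymus and medians of 6.55, 7.24 and 7.88 CPM in the lymphoma groups. Spi1 (chr2:91082390-91115756, plus strand), the ETS factor of myeloid and B cells, had 7.66, 15.8 and 37.3 CPM in normal thymus and medians of 12.4, 9.09 and 11.3 CPM. In treated p53-/- mice Lmo2 had an edgeR log2 fold change of -0.94 (adjusted p = 0.0582) and Spi1 one of -0.79 (adjusted p = 0.0625). Without normal mouse 387 the edgeR values there were -0.08 for Lmo2 (adjusted p = 0.869), -0.41 for Spi1 (adjusted p = 0.356) and -0.89 for Lyl1 (adjusted p = 0.355). Lyl1, Lmo2 and Spi1 were all called lower there when mouse 881, which is in another group and adds to the shared spread, was left out, and none of them when mouse 387 was left out as well (edgeR adjusted p = 0.159 for Lyl1, 0.803 for Lmo2 and 0.3 for Spi1). Without mouse 881 alone, 7 factors were called lower in treated p53-/- mice, 6 in treated p53+/- mice and 3 in untreated p53-/- mice. In the same order, 52.7%, 51.7% and 41.9% of all genes were called, and 27%, 25.7% and 18.7% were called lower.

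Tlx1 (chr19:45150680-45156943) and Tlx3 (chr11:33200752-33203589), homeobox genes silent in normal T cells, were at or near the detection limit. Tlx1 was at 0 counts in 17 of 31 lymphomas, and its highest lymphoma value was 0.221 CPM, from 12 counts in mouse 202, against at most 0.291 CPM in normal thymus. Tlx3 was at 0 in 29 of 31 lymphomas and did not exceed 0.0564 CPM. The 3 counts that a count of 0 allows correspond to 0.0303 to 0.509 CPM, depending on the mouse. No lymphoma reached 1 CPM of either gene. On these counts, DESeq2 called Tlx1 lower in treated p53-/- (-3.15, adjusted p = 0.00376) and treated p53+/- mice (-1.95, adjusted p = 0.0405), and edgeR without the filter called it lower in the same groups.

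**Figure D2:**
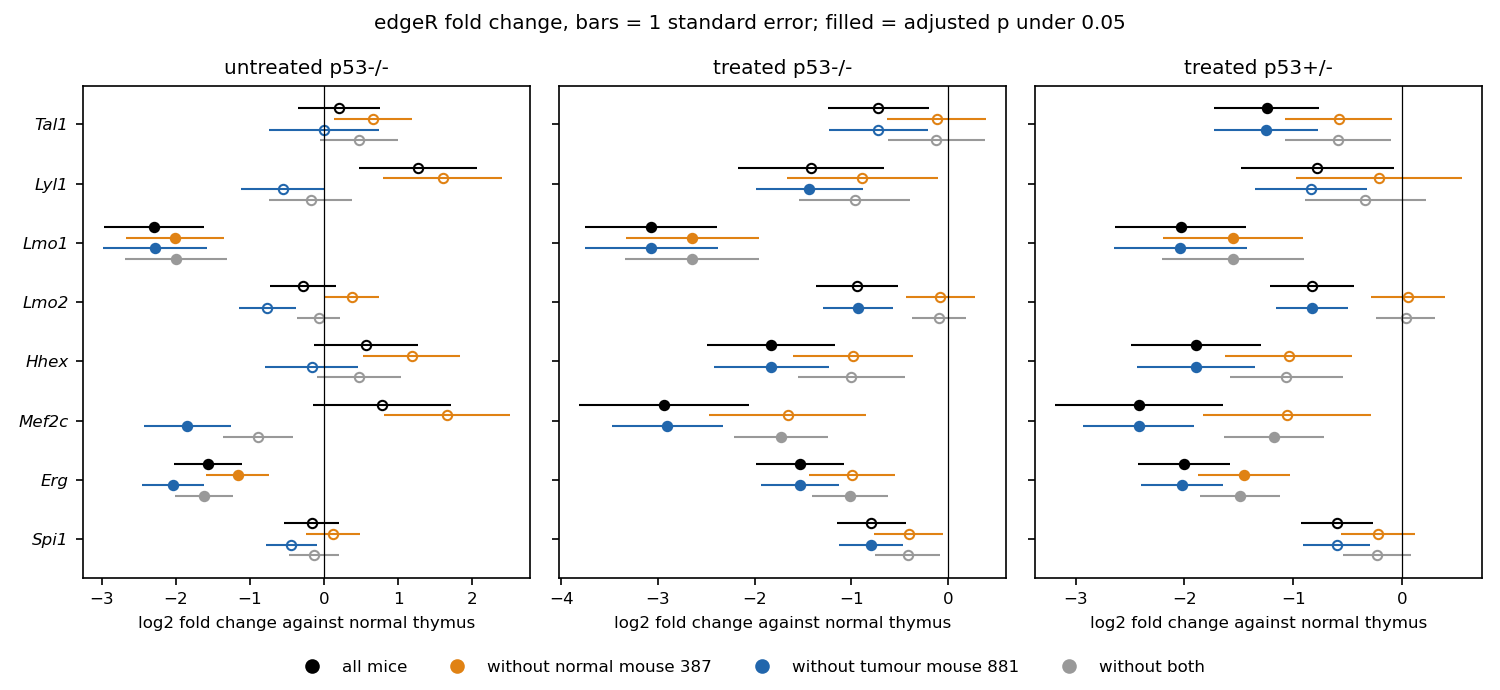
The edgeR log2 fold change against normal thymus for 8 factors in the 3 lymphoma groups, with 1 standard error, under 4 choices of mice. Filled points passed an adjusted p of 0.05. Lmo1 is filled under all 4 choices in all 3 groups, Hhex and Mef2c are open in both treated groups without normal mouse 387, and the Mef2c value in untreated p53-/- lymphomas changes from 0.79 to -1.84 without mouse 881.

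Partners of the factors and stage genes were counted in the same edgeR fit, in which 23.2%, 25.4% and 25.6% of all genes were called higher and 17.5%, 26.7% and 25.3% lower. The counts below are to be read against those shares. Among 16 partners in the E protein, LDB1 and GATA complexes, 2, 3 and 2 were called higher and 4, 5 and 3 lower, in the same order of comparisons, with medians of -0.02, -0.23 and -0.27 on the log2 scale beside 0.08, -0.04 and -0.001 over all genes. Tcf12, an E protein that pairs with TAL1 and LYL1, rose in all 3 groups (0.71, 0.95 and 0.91, edgeR adjusted p = 0.00905, 0.000505 and 0.000551). Gata2, the stem cell GATA factor, fell in all 3 (-1.49, -1.51 and -1.64). Tcf3 rose by 1.05 in untreated p53-/- lymphomas, and Runx1, which binds beside the TAL1 complex, by 1.07 in treated p53-/- lymphomas. Of 13 early thymic progenitor genes, 11 were tested: 5, 7 and 6 were called lower and none higher. Without normal mouse 387 these counts were 4, 7 and 6, beside 14.4%, 20.8% and 18.4% of all genes. Dendritic, thymic epithelium and fat markers also fell, as given with Lmo1, and their part in the fall of the progenitor genes was not tested. Meis1, a homeobox cofactor of stem cells, had log2 fold changes of -2.84, -3.83 and -3.82. Among 11 T commitment genes, 0, 1 and 1 were called higher and 3, 1 and 2 lower, and without mouse 387 none was called higher. Ptcra, the pre-T-cell receptor chain, rose by 2.42 and 2.20 in the treated groups, and the co-receptor Cd4 fell by 2.35, 2.49 and 2.14. Of 15 other T-leukaemia oncogenes and paralogs of the 10 factors, 5 were tested. Mef2b was called higher in untreated p53-/- lymphomas (1.68), Fli1, the closest ETS relative of Erg, was lower in both treated groups (-0.67 and -0.60), and Spib, the paralog of Spi1, was lower in treated p53+/- lymphomas (-1.73). The calls of Ptcra, Fli1 and Spib were lost without mouse 387, and those of Mef2b, Meis1, Gata2, Tcf12, Tcf3, Runx1 and Cd4 named here were not. Without mouse 387 the partners called lower numbered 4, 3 and 3.

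Between lymphoma groups no factor was called. The edgeR fit of the 3 lymphoma groups tested 16389 genes, among them 7 of the 10 factors, and called 0 genes in each of 3 comparisons, a background of 0% for all genes. At an unadjusted p under 0.05 it held 1917, 864 and 1037 genes, and 3, 0 and 4 factors, for treated against untreated p53-/-, treated p53+/- against treated p53-/-, and treated p53+/- against untreated p53-/- lymphomas. DESeq2 called 91, 22 and 13 genes (0.485%, 0.0688% and 0.0356%) and no factor. For treated against untreated p53-/- lymphomas the 3 factors were Mef2c (-3.46 ± 1.04, edgeR adjusted p = 0.279), Lyl1 (-2.67 ± 0.93, adjusted p = 0.293) and Hhex (-2.19 ± 0.74, adjusted p = 0.29). For treated p53+/- against untreated p53-/- lymphomas they were Hhex (-2.22), Mef2c (-2.86), Lyl1 (-2.02) and Tal1 (-1.22), all with an edgeR adjusted p of 0.776 or 0.777. Without mouse 881 the counts of 3 and 4 factors each dropped to 1, Hhex (-1.48 and -1.54). In the same 2 comparisons Mef2c then had -0.93 and -0.40 and Lyl1 -0.89 and -0.31. Tal1 had -1.04 for treated p53+/- against untreated p53-/- lymphomas.

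A tumour was said to have activated a gene where its level was at least 1 CPM, at least 8 times the median of the 31 lymphomas and above every p53+/+ thymus. By this rule 4 of the 8 factors that reached 1 CPM in any lymphoma were activated, as 5 pairs of factor and tumour, in 3 tumours. All 3 tumours were untreated p53-/-. The share of activated genes was 19% over all 19449 genes that reached 1 CPM, and the count of 4 of 8 factors was not tested against it. Whether untreated p53-/- mice differ in this from the treated groups was not tested.

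**Figure D3:**
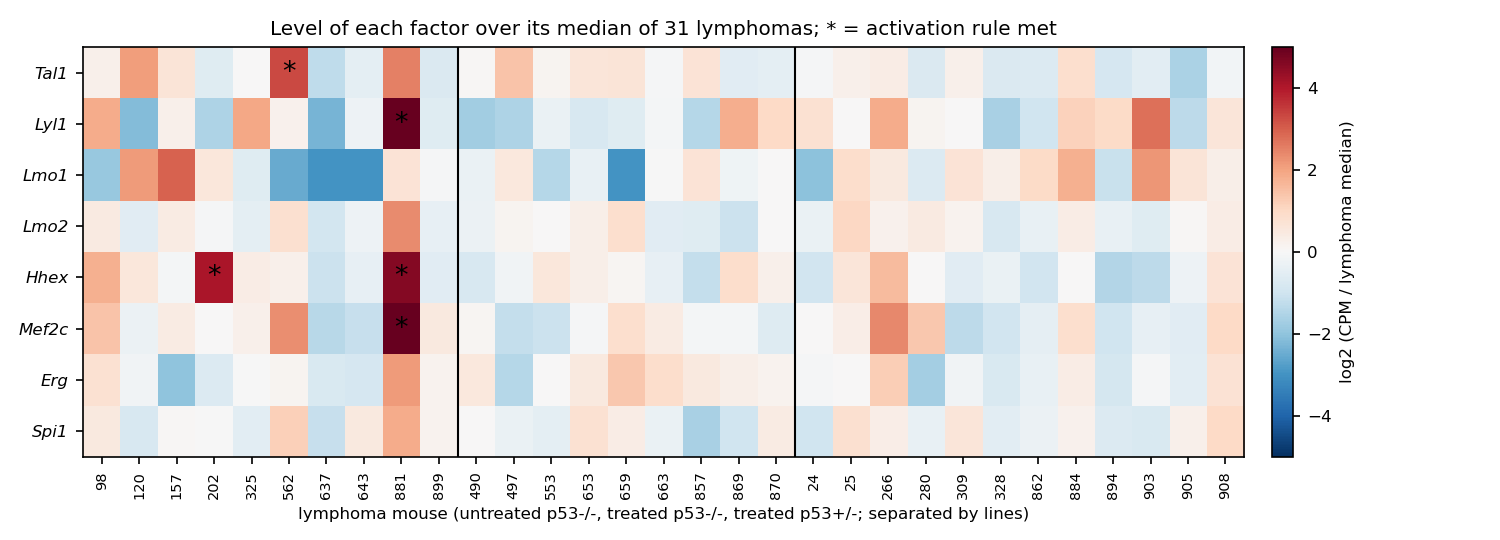
Each factor's level over its median of 31 lymphomas, as log2, with 1 column per mouse and vertical lines between the untreated p53-/-, treated p53-/- and treated p53+/- groups. A star marks a level that met the activation rule. Stars fall on Tal1 in mouse 562, Hhex in mouse 202, and Lyl1, Hhex and Mef2c in mouse 881, and the colours saturate at 5 on the log2 scale.

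Mouse 881 held 3 of the 5 pairs. Mef2c reached 250.6 CPM, 87.5 times the lymphoma median, Lyl1 84.3 CPM (32.8 times) and Hhex 41.6 CPM (24.3 times). Lmo2 (37.3 CPM, 5.15 times), Spi1 (41.0 CPM, 3.58 times), Erg (8.08 CPM, 4.37 times) and Tal1 (3.07 CPM, 5.75 times) were also elevated there. Of those 4, Lmo2, Spi1 and Erg were at their highest of the 31 lymphomas, and only Spi1 and Tal1 were above every normal thymus. For Tal1 the highest normal thymus also rounds to 3.07 CPM, so the margin was within the rounding. The tumour's marker genes differed from those of the other lymphomas in the same libraries. Pax5 was at 923.1 CPM, Cd79a at 865.0 and Ebf1 at 526.2, against lymphoma medians of 0.499, 2.46 and 2.33. Cd3e was at 1.81 CPM against a median of 255.5, Bcl11b at 2.42 against 249.3 and Gata3 at 1.09 against 65.4. Spib (242.7 CPM) and Bcl11a (194.4 CPM), used by B cells and their progenitors, were elevated in it too. The endothelial sum was 372.1 CPM, the highest of the 31 lymphomas, against 50.5 to 300.7 CPM in the others, with Cdh5 at 44.4 CPM against a median of 14.4. The part of the B lineage and endothelial markers in the levels of the 10 factors, Erg among them, was not tested, and the label gives thymic lymphoma as the tissue.

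Mouse 202 had Hhex at 29.3 CPM (95% exact binomial interval 27.8 to 30.8, counting error only), 17.1 times the lymphoma median. Mef2c at 2.94 CPM and Lmo2 at 6.95 CPM were near their medians (1.03 and 0.96 times), and Lyl1 at 0.883 CPM was low (0.343 times). No other factor met the activation rule there. The B lineage sum was 40.2 CPM, within the range of the other lymphomas, and the T lineage sum of 1736 CPM was the lowest after mouse 881, with Cd3e at 355.1 CPM. The thymic epithelium sum of 352.4 CPM was the highest of the 31 lymphomas (median 42.3 CPM, next mouse 881 at 345.2), and the dendritic sum was 32.6 CPM within a range of 3.21 to 44.1 (median 14.4). Xcr1, a receptor of cross-presenting dendritic cells, was at 10.2 CPM, the highest of the 31, against a median of 1.05. The endothelial sum of 50.5 CPM was the lowest. The part of these cells in the Hhex level was not tested. Among the 11 T commitment genes, the recombinases and CD8 chains were nearly silent and others were not. Rag1 had 0.331 CPM against a lymphoma median of 788.7, Rag2 was at 0 against 51.6, Ptcra had 0.368 against 72.7 and Cd8a 4.52 against 604.2. Cd4 was at 49.7 CPM against a median of 98.4, Tcf7 at 1420 against 1879 and Bcl11b at 122.2 against 249.3, while Ets1 (1270 CPM) was the 2nd highest of the 31. Of the T lineage markers, Cd3d was above its median (562.9 against 276.6 CPM) and Thy1 far below it (137.7 against 1058). Lmo4, a LIM-only paralog that also binds LDB1, was at 9.65 CPM against a median of 112.3. Mouse 202 also had the most activated genes of any tumour, 556, followed by mouse 881 with 479. The median tumour had 149 and the lowest 59.

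Mouse 562 had Tal1 at 5.19 CPM (95% exact binomial interval 4.28 to 6.24), 9.72 times the lymphoma median, from 114 counts. Red cell and megakaryocyte markers were high in the same library. Their sum was 86.2 CPM against a median of 17.9 CPM over the lymphomas without mouse 881 and 9.50 to 23.7 CPM in the normal thymuses other than mouse 387, which had 96.3 CPM. Mef2c (14.3 CPM, 4.98 times) and Spi1 (26.4 CPM, 2.30 times) were also above the median there. Its 386 activated genes were among the most of any tumour. The part of red cell precursors in the Tal1 level was not tested, and the tumour was biopsied once, so no second biopsy could be compared.

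Several levels fell just outside the rule. Lmo1 in mouse 157 reached 7.76 times its median at 2.04 CPM (27 counts) and stayed below 3.78 CPM in the highest normal thymus. Lyl1 in mouse 903, treated p53+/-, was 6.71 times its median at 17.3 CPM, below 21.1 CPM in normal mouse 387 but above the other 7 normal thymuses (at most 6.20 CPM). Mouse 903 also had the highest Lmo1 of its group, 1.22 CPM. In mouse 120, untreated p53-/-, Tal1 (2.29 CPM, 4.29 times) and Lmo1 (1.15 CPM, 4.35 times), which encode partners in 1 complex, were elevated together on 32 and 16 counts. That tumour resembled mouse 202 in its Rag1 (1.5 CPM) and Ptcra (0.358 CPM). Mef2c in mouse 266, treated p53+/-, was 5.29 times its median at 15.2 CPM. With a 4-fold limit (28.7% of all genes) the rule found 6 pairs, the added 1 being Tal1 in mouse 881, above the highest normal thymus only within the rounding. With a 16-fold limit (11.3%) it found 4 pairs, which left out Tal1 in mouse 562. It found 5 pairs when the deepest biopsy stood for each tumour (20.2%). With mouse 881 left out, both as a tumour and from the medians (17.5%), there were 2 pairs, Tal1 in mouse 562 and Hhex in mouse 202.

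The genes nearest to each activated factor were compared in the same tumours. Beside Hhex, Exoc6, 109.7 kb away on the side of higher coordinates, was at 42.2 CPM in mouse 202 and 51.8 CPM in mouse 881, the 2nd highest and highest of 31 lymphomas, against a median of 12.9 CPM. Kif11, 13 kb away on the other side, was at its median in mouse 202 (267.4 CPM). Beside Tal1, Pdzk1ip1, 17 kb away, was highest in mouse 562 at 1.91 CPM (12.7 times a median of 0.15 CPM, with a normal median of 1.23 CPM), and Stil, 13.2 kb away on the other side, was lowest there at 29 CPM against a median of 68.8. Beside Mef2c, Tmem161b, 555.2 kb away, was highest in mouse 881 at 25.8 CPM (1.70 times its median), and Cetn3 was near its median (60.4 against 57.3 CPM). Beside Lyl1, Trmt1, 1.6 kb away, had 86.4 CPM in mouse 881 (1.34 times its median) and G430095P16Rik 0.176 CPM. The rise of Lyl1 and Mef2c in mouse 881 was thus many times that of the genes beside them, while Exoc6 and Pdzk1ip1 were elevated with Hhex and Tal1.

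Activation was called on the summed biopsies, so the single biopsies of a tumour show only how evenly an activated level was spread in it. In mouse 881 the 4 biopsies had Mef2c at 236, 286, 202 and 225 CPM. Lyl1 was at 85.2, 105, 74.2 and 57.4 CPM and Hhex at 32.7, 47.4, 40.2 and 37.0 CPM. All of these were above every biopsy of the other 12 multiply sampled tumours. Tal1, by contrast, differed 4.15-fold among them (1.03, 2.64, 3.38 and 4.27 CPM). The B lineage sum was 3502, 4848, 2634 and 2184 CPM and the T lineage sum 132.7 to 165.2 CPM. In the same order of biopsies the thymic epithelium sum was 157.1, 27.4, 303.6 and 811.5 CPM and the dendritic sum 20.5, 8.44, 18 and 42.1 CPM, both highest in the biopsy with the highest Tal1. The red cell and megakaryocyte sum was 14.7, 11, 15.5 and 8.31 CPM. The part of these cells in the Tal1 range was not tested. In mouse 202 the 4 biopsies had Hhex at 27.1, 26.2, 25.4 and 30.4 CPM, a ratio of 1.20 between the highest and the lowest.

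Below the activation rule, agreement was mixed. Lyl1 in mouse 870, treated p53-/- and 1 of the mice with a sex mismatch, was 15.9 CPM in biopsy 1 and 1.11, 2.49 and 1.57 CPM in the other 3, a 14.3-fold range. Of 8 marker sums, 7 lay in biopsy 1 within the range of the other 3 biopsies, among them 14.7 CPM for the B lineage (8.10 to 24.3), 910.1 CPM for myeloid (764.4 to 1384) and 3328 CPM for the T lineage (2993 to 4090). The fat sum was below the others (45.3 against 60.8 to 113.1 CPM). In mouse 903 the elevated Lyl1 was found in all 4 biopsies (19.8, 14.6, 13 and 18 CPM), as was Lmo1 (1.23, 1.16, 1.1 and 1.15 CPM). Mouse 908, treated p53+/-, had Mef2c at 2.42, 1.74, 6.53 and 13 CPM, Hhex at 1.70, 1.08, 3.13 and 5.39 CPM and Lyl1 at 2.55, 1.41, 5.19 and 6.79 CPM. Its B lineage sum was 29.7, 34.3, 95.2 and 191.8 CPM in the same order of biopsies, so the same pair of biopsies was high for all 3 genes and for these markers. That pair was also the higher for the myeloid (1698 and 1431 against 1060 and 987.6 CPM), dendritic (46.9 and 54.9 against 29.2 and 31.4), endothelial (189.5 and 200.4 against 172.1 and 172.2) and fat sums (186.1 and 440.3 against 52.5 and 99 CPM), and the lower for thymic epithelium (59.1 and 9.59 against 107.2 and 106.1 CPM). In mouse 869, treated p53-/- and also mismatched in sex, biopsy 3 had the highest Hhex (7.53 CPM against 1.29 to 2.87) and Spi1 (13 CPM against 3.79 to 4.39), the highest B lineage sum (49.4 against 8.94 to 11 CPM) and the highest myeloid sum (1098 against 394.6 to 700.1 CPM), but the lowest Lyl1 (4.39 against 8.42 to 12.1 CPM). Its thymic epithelium sum was 223.0 CPM against 1.74 to 3.67 CPM in the other 3 biopsies, and its dendritic sum 26.4 against 3.17 to 6.90 CPM. The part of admixed cells in these differences was not tested.

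**Figure D4:**
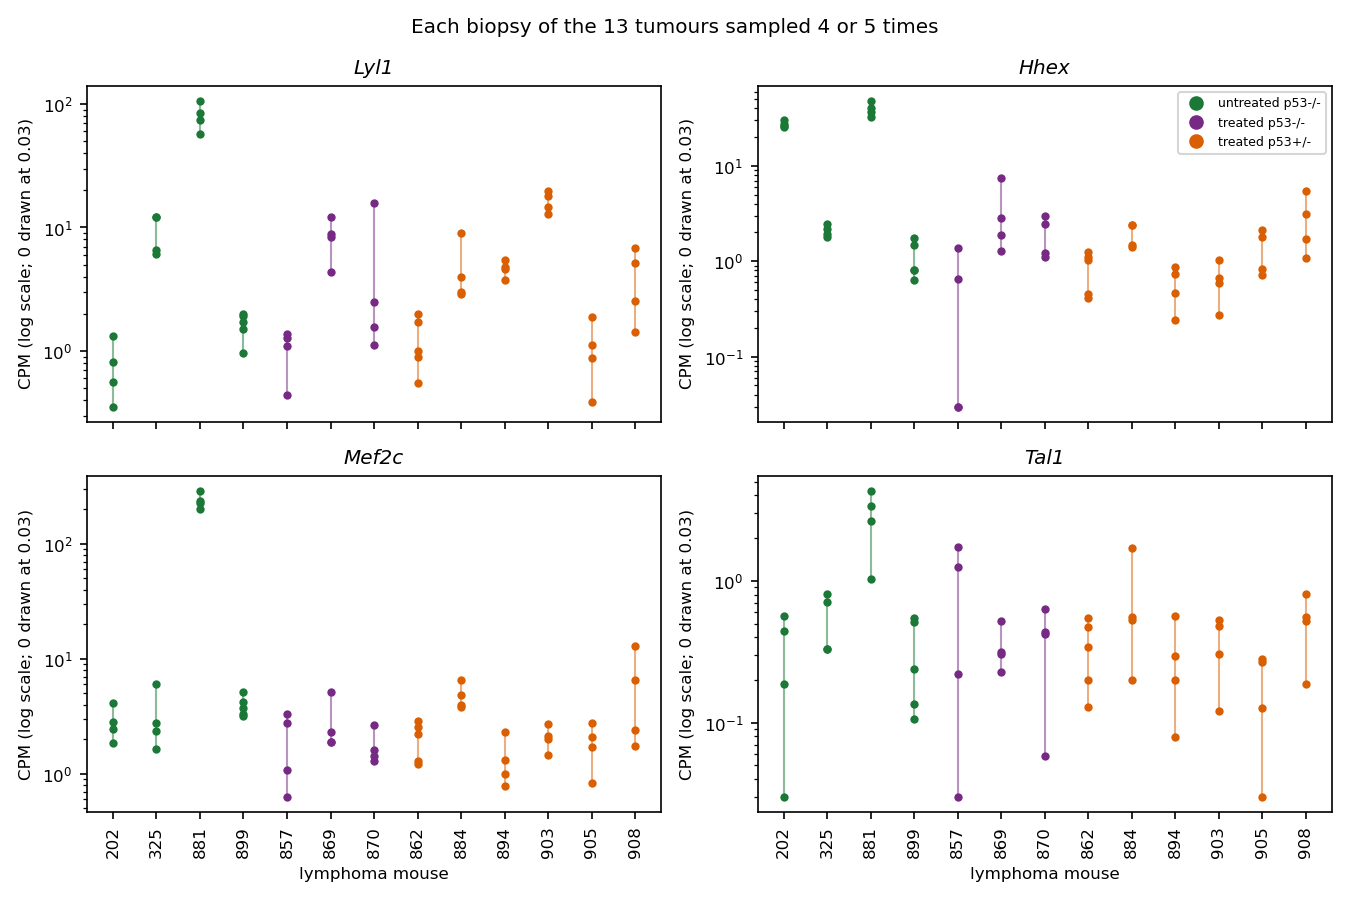
CPM of Lyl1, Hhex, Mef2c and Tal1 in every biopsy of the 13 tumours sampled 4 or 5 times, on a log axis, with 1 point per biopsy and a line from the lowest to the highest. Values of 0 are drawn at 0.03. The biopsies of mouse 881 lie above all others for Lyl1, Hhex and Mef2c, those of mouse 202 lie close together for Hhex, and 1 biopsy of mouse 870 stands at 15.9 CPM of Lyl1 above the other 3.

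Over the 54 libraries of the 13 tumours, the share of variance in log2 CPM that lay between tumours was 89.0% for Mef2c (jackknife SE 51.8 over tumours), 85.9% for Lyl1 (SE 11.3), 85.6% for Hhex (SE 10.8), 76.9% for Lmo2 (SE 31.7), 75.1% for Spi1 (SE 13.4), 69.3% for Erg (SE 23.5) and 36.4% for Tal1 (SE 40.5). The median over all genes tested was 70.5%. Leaving out mouse 881 changed 4 of these values by far more than that median, which became 69.7%: Mef2c to 33.8%, Lmo2 to 44.0%, Erg to 45.6% and Tal1 to -4.0%, where a negative value says that biopsies of a tumour differed as much as biopsies of different tumours. Lyl1 (75.4%), Hhex (77.2%) and Spi1 (62.7%) moved less.

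Across the 31 lymphomas, relations were computed for the 7 factors passing the filter with each other and with the mean log2 CPM of 8 marker lists, 77 in all. With Benjamini-Hochberg adjustment over the 77, Pearson's r passed 0.05 in 32 (26 positive and 6 negative) and Spearman's rho in 17. Without mouse 881 these counts were 12 and 11, and with no scaling factors 41 (35 positive) and 30. The closest pair was Spi1 with Lmo2 (r = 0.820, rho = 0.794, permutation test, adjusted p = 0.000193 and 0.000257, raw p = 1e-05 for each, the smallest that 100000 resamples can give). It was 0.756 without the tumours farthest from the median of Lmo2 (mice 869 and 881), 0.772 without mouse 881, and 0.899, 0.712 and 0.770 within the untreated p53-/-, treated p53-/- and treated p53+/- groups. Both genes also rose and fell with myeloid markers. For Spi1, r was 0.666 and rho 0.760 (permutation test, adjusted p = 0.000193 and 0.000257), with 0.710 without mice 266 and 659 and 0.571, 0.867 and 0.732 within groups. For Lmo2, r was 0.485 and rho 0.645 (permutation test, adjusted p = 0.0179 and 0.00192), with 0.471 without mice 266 and 659 and 0.382, 0.882 and 0.457 within groups. Lmo2 also followed the B lineage markers (r = 0.739, rho = 0.613, permutation test, adjusted p = 0.000642 and 0.00286), with 0.542 without mice 98 and 881, 0.548 without mouse 881 and 0.817, 0.337 and 0.749 within groups.

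Erg followed the 8 endothelial markers (r = 0.754, rho = 0.825, permutation test, adjusted p = 0.000193 and 0.000257). The r was 0.706 without mice 202 and 881 and 0.842, 0.673 and 0.645 within the 3 groups. Mef2c did so too (r = 0.604, rho = 0.587, permutation test, adjusted p = 0.00259 and 0.00642), with 0.525 without mice 202 and 881, 0.48 without mouse 881 and 0.849, 0.675 and 0.837 within groups. Mef2c also followed the 7 B lineage markers (r = 0.812, rho = 0.643, permutation test, adjusted p = 0.000193 and 0.00192), with 0.607 without mice 98 and 881. Within groups its r was 0.846, 0.216 and 0.845, and whether the groups differ in it was not tested. Hhex followed the B lineage markers over all lymphomas (r = 0.698, rho = 0.673, permutation test, adjusted p = 0.00259 and 0.00192), with 0.419 without mice 98 and 881 and 0.734, -0.013 and 0.869 within groups. With the 4 dendritic markers Hhex had r = 0.46 and rho = 0.549 (permutation test, adjusted p = 0.0228 and 0.0116). That r was 0.451 without mice 25 and 637, 0.49 without mouse 881 and 0.727, 0.519 and 0.561 within groups. The 6 negative relations were all with the T lineage markers. Erg passed both tests there (r = -0.600, rho = -0.496, permutation test, adjusted p = 0.000642 and 0.0265), with -0.444 without mice 280 and 881, -0.541 without mouse 881 and -0.778, -0.752 and -0.582 within groups. Hhex did too (r = -0.686, rho = -0.452, permutation test, adjusted p = 0.00259 and 0.0498), with -0.470 without mice 280 and 881, -0.417 without mouse 881 and -0.727, -0.282 and -0.289 within groups. Mef2c, Lmo2, Lyl1 and Spi1 passed by r but not by rho, and without mouse 881 their r was -0.189, -0.156, -0.018 and -0.322. Tal1 and the red cell markers had r = 0.439 and rho = 0.296 (permutation test, adjusted p = 0.0426 and 0.195), and r was 0.099 without mice 98 and 562, on which the relation over all lymphomas rests. It was 0.576 without mouse 881 and 0.397, 0.526 and 0.232 within groups, the treated p53-/- group holding neither of those mice. Tal1 and Lyl1, the paralogs, did not pass (r = 0.209, rho = 0.135, permutation test, adjusted p = 0.355 and 0.574).

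**Figure D5:**
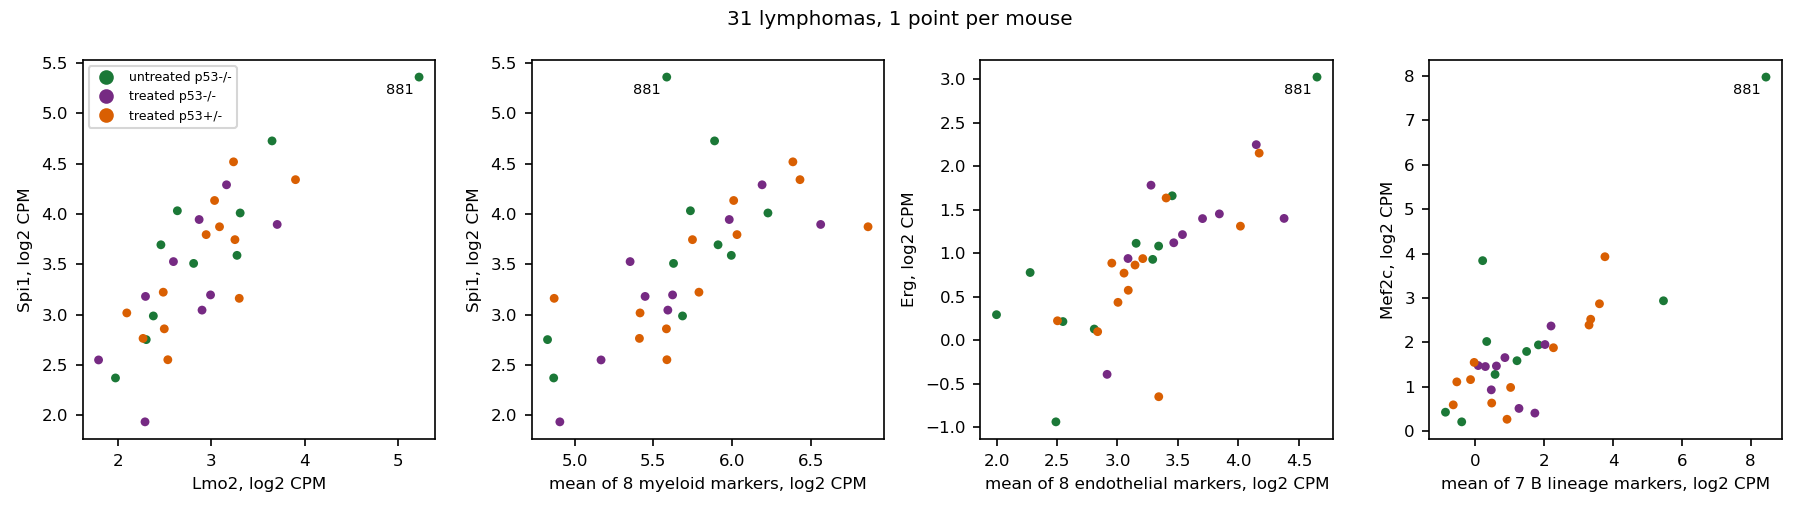
Log2 CPM of Spi1 against Lmo2, Spi1 against the mean of 8 myeloid markers, Erg against the mean of 8 endothelial markers and Mef2c against the mean of 7 B lineage markers, with 1 point per lymphoma mouse coloured by group. The r over 31 lymphomas is 0.820, 0.666, 0.754 and 0.812. Mouse 881 is the highest point for Spi1, Erg and Mef2c.

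For each factor the genes most alike over the 31 lymphomas were named by Pearson's r of log2 CPM, 3 for each factor but Lmo2. Spi1 was closest to Zeb2 (0.906), Mdfic (0.878) and Fes (0.862), and Lmo2 was close to Btk (0.882), the B cell and myeloid kinase, and Car13 (0.858). Mef2c was closest to Ebf1 (0.905), a B lineage factor and also 1 of the 7 markers used above, Dennd5b (0.878) and Ehd2 (0.852). Erg was closest to Col4a2 (0.870), a basement membrane collagen, Cdh5 (0.868), the endothelial cadherin and 1 of the 8 markers, and Notch4 (0.854). Hhex was closest to Gm1966 (0.805), Cxcr5 (0.8), the B cell chemokine receptor, and Inpp5d (0.795). Lyl1 was closest to Herpud1 (0.786), Il33 (0.715) and Snx2 (0.708), and Tal1 to Car2 (0.810), Mybpc2 (0.721) and Des (0.715), the last 2 being muscle genes. Without mouse 881 the 3 genes closest to Mef2c were others, Ssc5d (0.792), Ebf3 (0.760) and Bcar3 (0.759), and Ebf1, Dennd5b and Ehd2 had 0.748, 0.694 and 0.658. Snx2 with Lyl1 fell to 0.502, while Cdh5 with Erg (0.852), Zeb2 with Spi1 (0.879) and Car2 with Tal1 (0.807) moved less.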

How the data were processed

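Per the labels' protocols, biopsies of frozen thymic tissue gave RNA for standard Illumina libraries. The submitters' processing notes name CASAVA 1.8, fastp, STAR 2.7.2b, RSEM 1.1.17 and mm10. The authors deposited expected counts (RSEM estimates, which split ambiguous reads between genes), of which 14.25% were not whole and were rounded here. The strandedness of the counting is not given in the sources used here.

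Biopsies were summed per mouse, the unit of replication. Whether mice shared a litter is not stated, so p-values measure the spread between these mice. EdgeR 4.0.16 in R 4.3.3 (TMM, filterByExpr, robust quasi-likelihood fit, labelled sex as covariate, Benjamini-Hochberg) fitted normal thymus with the 3 lymphoma groups, and the lymphoma groups alone. DESeq2 1.42.0, other scalings, filters and subsets of mice were alternatives. Log2 CPM used a prior count of 2. Activation medians under 0.1 CPM were set to 0.1. Permutation tests, two-sided with 100000 resamples, ran in Python 3.11.15 with scipy 1.17.1. Scripts were tested on simulated data. Gene coordinates come from GENCODE M21 (GRCm38), which held 99.63% of the gene IDs. Promoters are from RefSeq.

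The factors, lists, activation rule and the following naming rule were chosen with earlier results of these data known: all 10 factors, the 3 genes most alike to each, the nearest protein-coding gene on each side of an activated factor, and up to 2 rises and 2 falls per list. Some genes that this rule names are not reported here. Marker genes of single tumours were named after their values were seen. Leaving out mouse 881 was an alternative added after seeing the data.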

Additional observations from a re-analysis of the deposited data

Results flagged for a closer look

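Of 25 groups of 4 to 10 mice tested, 7 had a highest or lowest mouse whose gap to its nearest neighbour was too large a part of the group's range by Dixon's 95% limit. Chance gives that in about 1 in 20 groups. Normal mouse 387 was the high one for Lyl1 (21.11 CPM), Lmo2 (50.07 CPM), Hhex (23.18 CPM) and Mef2c (104.4 CPM), in the same library that had high fat, B lineage and endothelial marker sums. Lymphoma mouse 881 was the high one among untreated p53-/- mice for Lmo2 (37.29 CPM) and Mef2c (250.6 CPM). Mouse 497 was the low one among treated p53-/- mice for Erg (0.6943 CPM).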

How the results depend on the processing

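Small counts limit the precision for Tal1, Lmo1, Tlx1 and Tlx3, also in the sums per mouse. Without normal mouse 387, the treated p53-/- group had 1 factor called and the treated p53+/- group 2. Without mouse 881, 7 were called in treated p53-/- lymphomas. Without both, 3 were called in treated p53+/- lymphomas. With single-biopsy tumours only, 1 was called in untreated p53-/- lymphomas (Erg, with Lmo1 lost). Leaving out each mouse in turn gave 2 to 3 factors called in untreated p53-/-, 1 to 7 in treated p53-/-, 2 to 6 in treated p53+/- and 0 to 0 between lymphoma groups. Shares of all genes are not given for these ranges or for single-biopsy tumours, so those counts are not read against a background. The Tal1 call in treated p53+/- lymphomas was lost also without the 3 mice whose sex-linked genes went against the label, without a filter, with the deepest biopsy only, with single-biopsy tumours only, and without mice 387 and 881.

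Directions of uncalled log2 fold changes turned as follows (ranges are over leaving out each mouse in turn). Against normal thymus in untreated p53-/- mice, Tal1 ran from -0.287 to 0.659. Lyl1 ran from -0.557 (without mouse 881) to 1.603, and was -0.555 by DESeq2, -0.922 with single-biopsy tumours and -0.177 without both mice. Hhex ran from -0.166 (without mouse 881) to 1.184 and was -1.177 with single-biopsy tumours and -0.28 by DESeq2. Mef2c ran from -1.842 (without mouse 881) to 1.665, and was -1.461 with single-biopsy tumours, -0.890 without both and -1.88 by DESeq2, which gave no p for Mef2c or Hhex. Lmo2 ran from -0.764 to 0.383 and Spi1 from -0.437 to 0.125, both highest without mouse 387. In treated p53+/- mice Lmo2 ran from -1.03 to 0.055 (without mouse 387) and was 0.034 without both. Between treated p53+/- and treated p53-/- lymphomas, Hhex ran from -0.351 to 0.128 and was 0.252 without the 3 mice with a sex mismatch and 0.235 with single-biopsy tumours, and Lmo2 ran from -0.032 to 0.34. Between treated p53+/- and untreated p53-/- lymphomas, Lmo2 ran from -0.641 to 0.086 (without mouse 881) and was 0.054 with single-biopsy tumours, and Erg ran from -0.637 to 0.024 (without mouse 881). Between the p53-/- groups Erg ran from -0.054 to 0.511. The cause was not tested. Under settings other than leaving out each mouse in turn, 246 tested values of the factors against normal thymus kept their direction and side of the threshold, 9 newly passed it, 14 lost it and 13 turned. Between lymphoma groups 184 kept theirs and 5 turned.

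Without mouse 881, 2 pairs of factor and tumour, of 2 factors, met the activation rule (17.5% of all genes), the share of variance between tumours was -4.0% for Tal1, 44.0% for Lmo2, 33.8% for Mef2c and 45.6% for Erg, and 12 relations passed by Pearson's r and 11 by Spearman's rho. With no scaling factors these were 41 and 30. No paired analysis was possible because the groups share no mice and their labels carry no replicate numbers that pair them.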
